A study of Mus musculus with 8 samples.

Results

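Necab1, Necab2, Necab3, Calb1, Calb2 and S100a5 are 6 genes for calcium-binding proteins of neurons, followed here in polysome RNA from the main olfactory epithelium of mice. They are 6 of the 21765 genes of the deposited table and were picked by name. Necab1 was picked for its higher level in early polysomes of Mex3a conditional knockout mice, S100a5 as a gene tied to odour-driven activity of olfactory neurons, and the others as relatives or fellow calcium-binding proteins. The early-polysome difference between genotypes is therefore described below without a test for any of the 6 genes.

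The 8 libraries fall into 4 groups of 2: wild type (WT) and conditional knockout (cKO), each as early and as late polysomes. Tissue was put in 100 µg/mL cycloheximide, which stops ribosomes on the mRNA, at dissection, and the lysate was spun through a sucrose gradient. Of about 42 fractions of 350 µL, numbers 27 to 34 were pooled as early polysomes and the denser 35 to 42 as late polysomes, with 50 µL taken from each. The question put by the design is which mRNAs change their level on light or heavy polysomes without Mex3a, a gene for an RNA-binding protein. Mice labelled WT were Mex3a flox/flox or Mex3a flox/+ without Cre, and cKO mice were Mex3a flox/flox with a Cre driver, so every group carried at least 1 floxed allele. The labels give no age, no sex and no number of animals per lysate, and do not say that replicates came from separate animals. The p-values thus measure the spread between these lysates only, and an exact permutation test of 2 libraries against 2 could not go below p = 0.333. The series' design text names tetO-HyperTRIBE-mCherry transgenes in sorted cells, while the labels of these 8 libraries name none, and the labels were followed.

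The EF-hand is a short protein loop held between a pair of helices, and it grips a calcium ion through the side chains of fixed loop positions. Calbindin (Calb1) and calretinin (Calb2) carry several such loops and soak up calcium in the cytosol, where they shape the calcium signals of many neurons. The NECAB proteins (Necab1, Necab2 and Necab3) carry EF-hands near their start and an enzyme-like domain of the monooxygenase type near their end. NECAB2 is known to bind receptors for adenosine and glutamate, and NECAB3 to bind an adaptor of the amyloid precursor protein. S100A5 is a small calcium-binding protein made in olfactory sensory neurons, and its mRNA is known to fall when odour input is cut off. In these neurons calcium enters through the odour-gated channel of the cilia and is pumped out again.

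The EF-hand loops are printed because they are what the 6 genes share, and because they show how close the relatives are. A standard EF-hand pattern was searched in the translated coding sequences of GENCODE vM21 on GRCm38. It was found 1 time in Necab1, Necab3 and S100a5, 2 times in Necab2, 4 times in Calb1 and 5 times in Calb2. A loop that departs from the pattern is not found, so these are counts of matches and not of all EF-hands. Each sequence is the first match, 39 bases of coding sequence read 5′ to 3′, with capitals on the codons of loop positions 1, 3, 5 and 12, which supply calcium-binding side chains.
Necab1: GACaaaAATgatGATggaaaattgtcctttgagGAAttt
Necab2: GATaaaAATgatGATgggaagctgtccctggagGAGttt
Necab3: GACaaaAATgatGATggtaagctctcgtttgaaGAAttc
Calb1: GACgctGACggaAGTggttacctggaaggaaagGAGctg
Calb2: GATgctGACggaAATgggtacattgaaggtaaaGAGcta
S100a5: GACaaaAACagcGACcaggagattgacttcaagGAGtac
The Necab1 loop matched that of Necab2 and that of Necab3 at 32 of 39 bases each. The Calb1 and Calb2 loops matched at 31. Between the families the match was lower, at 20 bases for Necab1 and S100a5 and 16 for Necab1 and Calb1.

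The genes lie on 4 chromosomes (GENCODE vM21, GRCm38). Necab1 (ENSMUSG00000040536.15) is at chr4:14952245-15149794 on the minus strand and has 13 exons and 352 codons. Calb1 (ENSMUSG00000028222.2), at chr4:15881264-15908064 on the plus strand, has 11 exons and 261 codons and starts 731 kb beyond Necab1. Necab2 (ENSMUSG00000031837.14) is at chr8:119446719-119472640 on the plus strand, with 13 exons and 389 codons. Calb2 (ENSMUSG00000003657.9) is at chr8:110137502-110168210 on the minus strand, with 11 exons and 271 codons. Necab3 (ENSMUSG00000027489.15) is at chr2:154544399-154558890 on the minus strand, with 13 exons and 353 codons. S100a5 (ENSMUSG00000001023.10) is at chr3:90608523-90611780 on the plus strand, 2.07 Mb from the floxed gene Mex3a, and has 3 exons and 93 codons.

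The transcripts differ most in length. Necab1 and Calb1 have long 3′ untranslated regions of 3648 and 3301 nt, longer than those of 91.4% and 88.9% of 14675 tested genes. In the other 4 genes that region measured between 126 nt (S100a5) and 740 nt (Necab3). The whole S100a5 coding sequence is 282 nt and lies in exons 2 and 3 at chr3:90609824-90611654. It is shown, with the EF-hand loop that matched the pattern in capitals, because it is the shortest of the 6.
S100a5: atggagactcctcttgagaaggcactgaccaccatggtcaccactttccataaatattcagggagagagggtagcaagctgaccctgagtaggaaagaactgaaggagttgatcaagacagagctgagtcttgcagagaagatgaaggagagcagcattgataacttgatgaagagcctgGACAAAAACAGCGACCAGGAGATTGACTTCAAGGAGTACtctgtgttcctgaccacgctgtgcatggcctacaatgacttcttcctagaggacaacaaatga

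Values below are TPM, the usual length-adjusted expression unit, in which the values of each library sum to 1000000. They are adjusted for transcript length, so that levels of different genes can be set side by side. Means, differences and tests use scaled TPM, in which each library was brought to a common median ratio, with factors from 0.940 to 1.07. A log2 difference is taken on log2(scaled TPM + 1), which understates changes of low genes. The libraries held between 7776792 and 12771079 inferred reads, fewest in cKO late replicate 2. Tests were made with limma over 16097 genes, and a gene was called at a Benjamini-Hochberg adjusted p under 0.05. Library pairs are given as replicate 1, then replicate 2.

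Mex3a itself stood at 97.4 and 115.6 TPM in the early pools of WT and at 13.9 and 19.8 TPM in those of cKO. It stood at 93.2 and 95.6 TPM in WT late and 11.1 and 13.8 TPM in cKO late polysomes, so that each library matched its title. WT early replicate 2, which holds 115.6 TPM, carries the cKO genotype tag in the labels and was kept as WT. In late polysomes Mex3a was lower in cKO by a log2 difference of -2.79 (SE 0.18, limma adjusted p = 0.0028), a call lost without either WT late library (adjusted p = 0.0901 and 0.0945). All 12 mature olfactory neuron markers looked for were present, led by Omp at 2439 to 5393 TPM, as were markers of supporting, glandular, stromal and immune cells. Of 122 tested markers in 14 cell type lists, limma called 0 between genotypes in late and 0 in early polysomes, where 19 and 8 had an unadjusted p under 0.05 and voom called 0 and 1. Of all tested genes, limma called only 0.0124% in late and 0.0435% in early polysomes, and 9.36% had an unadjusted p under 0.05 in late polysomes. The lack of calls therefore does not show that the genotypes held equal shares of these cell types.

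S100a5 and Calb2 were among the most abundant mRNAs of the tissue, and the other 4 genes were of middling level. Averaged over the 8 libraries, S100a5 lay above 99.9% and Calb2 above 99.6% of tested genes. Necab3, Necab1, Calb1 and Necab2 lay above 46.4%, 45.2%, 32.9% and 28.9%. S100a5 made up between 64.2% and 71.0% of the summed TPM of 17 S100 genes, and Calb2 between 96.9% and 97.9% of that of 6 cytosolic EF-hand buffers.

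In every group S100a5 ranked first and Calb2 second by mean TPM, with no overlap of libraries between them. Below these, the order in WT early polysomes was Necab3, Necab1, Necab2 and Calb1, of which Necab2 and Calb1 overlapped. In WT late polysomes it was Necab3, Necab1, Calb1 and Necab2, with Necab3 and Necab1 overlapping. In cKO early polysomes it was Necab1, Necab3, Necab2 and Calb1 with no overlap between neighbours. In cKO late polysomes it was Necab1, Calb1, Necab3 and Necab2, with Calb1 and Necab3 overlapping.

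**Figure D1:**
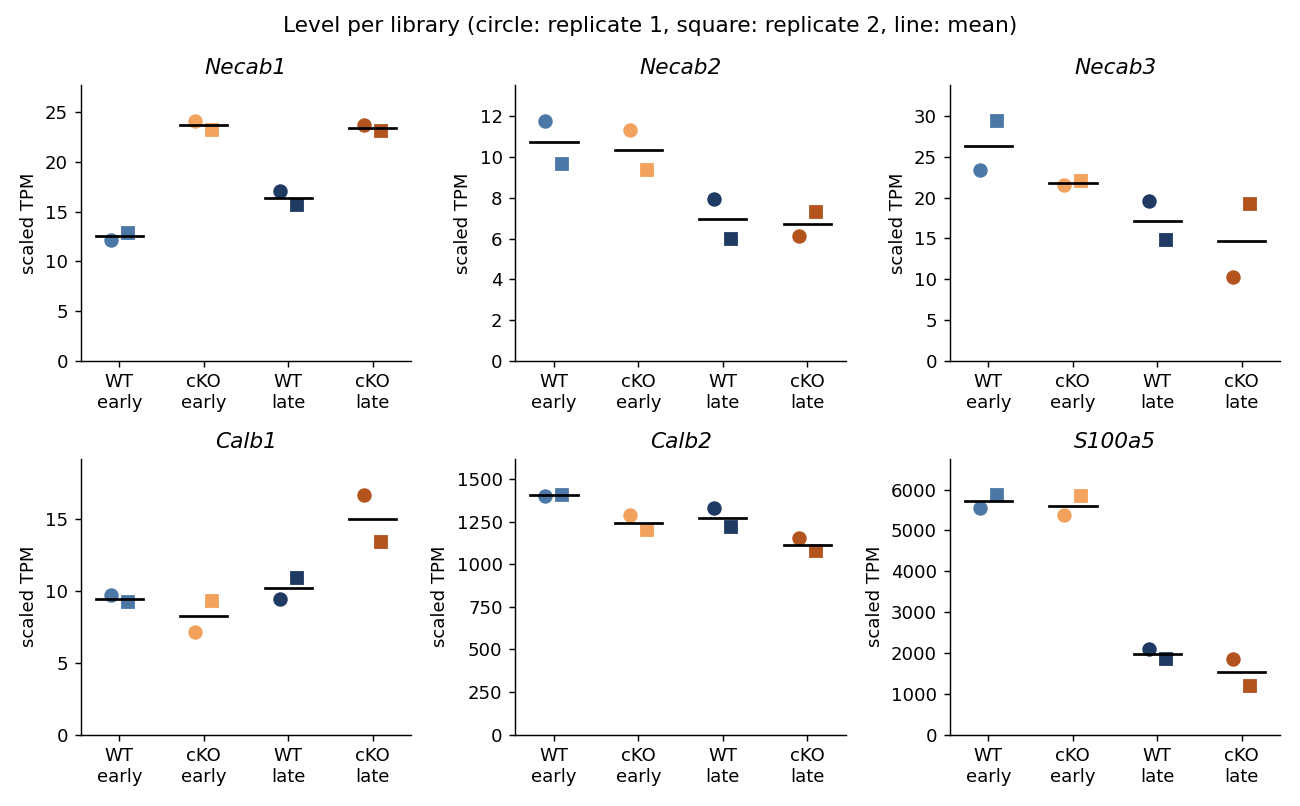
Level of each gene in scaled TPM (y axis from 0) in the 4 groups, with circles for replicate 1, squares for replicate 2 and a line at the mean of the 2 libraries. Both cKO groups stand above both WT groups for Necab1, S100a5 falls from early to late polysomes in both genotypes, and Calb1 is highest in cKO late polysomes.

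Necab1, whose protein is a calcium-binding protein of particular neuron types, stood at 12.1 and 12.6 TPM in WT early polysomes and at 23.2 and 21.8 TPM in cKO early polysomes. It stood at 18.0 and 16.8 TPM in WT late polysomes and at 24.1 and 24.4 TPM in cKO late polysomes. All 4 cKO libraries thus lay above all 4 WT libraries, and within WT the late libraries lay above the early ones. Between 288 and 542 inferred reads stand behind these values, for a counting error of at most 5.89%.

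In early polysomes, the contrast that chose Necab1, scaled TPM was 12.5 ± 0.536 (SD, n = 2) in WT and 23.7 ± 0.639 (SD, n = 2) in cKO. The difference was 0.87 on the log2(scaled TPM + 1) scale (SE 0.11), or 1.83-fold on that scale, and the ratio of the means was 1.89. In late polysomes it was 16.4 ± 0.957 (SD, n = 2) in WT and 23.4 ± 0.424 (SD, n = 2) in cKO. That is a log2 difference of 0.49 (SE 0.11), or 1.41-fold on that scale, with both cKO libraries above both WT libraries. The ratio of the late means was 1.43. The unadjusted p was 0.0018, and over all genes the limma adjusted p of 0.332 did not pass the threshold. The late libraries come from the same lysates as the early ones, so they are not a separate set of samples. The late p is thus not free of the choice of Necab1.

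The annotated antisense gene Gm11837 lies on the opposite strand of Necab1 and shares 410 exonic nt with it. Its level was 5.06 and 5.81 TPM in the WT early pair, 10.1 and 5.85 in cKO early, 4.49 and 3.07 in WT late and 2.13 and 0.828 in cKO late polysomes. In scaled TPM both genes had their highest group mean in cKO early polysomes, and Gm11837 had its lowest in cKO late polysomes, where Necab1 was nearly as high as in cKO early polysomes. The kit marks strand, but whether the counting used it is not given in the sources used here, so the share of reads common to both genes is unknown.

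The 5 genes whose levels followed Necab1 most closely over the 8 libraries, among 12815 with a mean of at least 5 TPM, were Prss12 (Pearson r = 0.974), Slco5a1 (0.949), Cmbl (0.948), Olfr55 (0.936) and Uty (0.923). These values are a description over 8 libraries that share 4 lysates. Uty is Y-linked, so sex-linked genes are given beside Necab1, picked after their values were seen. Uty stood at 6.79 and 6.85 TPM in the WT early pair, 13.3 and 9.37 in cKO early, 10.4 and 8.59 in WT late, and 14.8 and 12.2 in cKO late polysomes. Xist, the RNA of the inactive X chromosome, stood at 3.37 and 2.75 TPM in the WT early pair, 1.08 and 1.75 in cKO early, 1.81 and 1.78 in WT late, and 0.701 and 0.600 in cKO late polysomes. In each polysome pool, then, both cKO libraries had more Uty and less Xist than both WT libraries. Of the other Y-linked genes looked at, Ddx3y and Kdm5d were higher in cKO than in WT on average in both pools, though the deposited Kdm5d values overlapped in early polysomes. Eif2s3y stood at 23.1 and 18.7 TPM in WT early polysomes and overlapped cKO early polysomes (27.9 and 18.1 TPM), while in late polysomes both cKO libraries (39.6 and 36.0 TPM) lay above both WT libraries (31.6 and 24.3 TPM). Neither Uty nor Xist was called between genotypes in late polysomes, with limma adjusted p = 0.486 for Uty (log2 difference 0.50, SE 0.19) and 0.463 for Xist (-0.72, SE 0.25). The part of the sex of the animals in the Necab1 difference was not tested.

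Necab2 stood at 11.7 and 9.50 TPM in the WT early pair, 10.9 and 8.79 in cKO early, 8.40 and 6.39 in WT late, and 6.23 and 7.71 in cKO late polysomes. All 4 early libraries lay above all 4 late ones, and the genotypes overlapped in both pools. Late-polysome scaled TPM was 6.95 ± 1.40 (SD, n = 2) in WT and 6.71 ± 0.833 (SD, n = 2) in cKO, a log2 difference of -0.04 (SE 0.19, limma adjusted p = 0.967). The fewest reads were 41, for a counting error of 15.6%.

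Necab3 stood at 23.2 and 28.9 TPM in the WT early pair, 20.7 and 20.8 in cKO early, 20.8 and 15.8 in WT late, and 10.4 and 20.3 in cKO late polysomes. The cKO late libraries differed from each other by more than any other pair, and they enclosed 1 of the WT late libraries. The late-polysome log2 difference between cKO and WT was -0.26 (SE 0.26, limma adjusted p = 0.786), and without cKO late replicate 1 it was 0.16. Neither Necab2 nor Necab3 therefore had a difference between genotypes in late polysomes beyond the spread of its libraries. The 1700003F12Rik gene, on the opposite strand, shares 71 exonic nt with Necab3 and reached at most 1.55 TPM.

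Calb1, the calbindin gene, stood at 9.64 and 9.00 TPM in the WT early pair, 6.82 and 8.74 in cKO early, 9.98 and 11.7 in WT late, and 17.0 and 14.1 in cKO late polysomes. The cKO late pair was the highest of the 4, and after scaling the cKO early libraries overlapped the WT early ones. Late-polysome scaled TPM was 10.2 ± 1.03 (SD, n = 2) in WT and 15.0 ± 2.34 (SD, n = 2) in cKO, with a ratio of means of 1.48. On log2(scaled TPM + 1) the difference was 0.52 (SE 0.17), or 1.43-fold on that scale. The unadjusted p was 0.0168 and the limma adjusted p was 0.444, so it did not pass. In early polysomes the log2 difference was -0.19 (SE 0.17).

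Calb2, the calretinin gene, stood at 1396 and 1383 TPM in the WT early pair, 1236 and 1127 in cKO early, 1404 and 1306 in WT late, and 1173 and 1136 in cKO late polysomes. In both pools the cKO libraries lay below the WT libraries. The log2 difference between cKO and WT was -0.18 (SE 0.13) in early and -0.19 (SE 0.13) in late polysomes, where the limma adjusted p was 0.673. Both values come from the same lysates. Calb2 is also a marker of olfactory bulb interneurons. Of 12 bulb markers, Tbx21, which marks the output neurons of the bulb, was the only marker under 1 TPM in every library, and the others each reached 1 TPM in some library. Without Calb2, the other 11 summed to 86.9 to 91.7 TPM in the WT early pair, 75.4 to 84.9 in cKO early, 156 to 163 in WT late and 140 to 146 in cKO late polysomes. Before scaling, that sum too was lower in cKO in both pools, but it was not computed on scaled TPM, and it includes Calb1. Its part in the Calb2 difference was not tested.

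S100a5 stood at 5521 and 5769 TPM in WT early and 5167 and 5490 in cKO early polysomes, and at 2215 and 1996 in WT late and 1884 and 1259 in cKO late polysomes. In early polysomes the deposited cKO values lay below both WT values, but after scaling the libraries overlapped, with a log2 difference of -0.03 (SE 0.23), or -0.43 with quantile normalization. In late polysomes both cKO libraries lay below both WT libraries. Scaled TPM there was 1978 ± 164 (SD, n = 2) in WT and 1521 ± 466 (SD, n = 2) in cKO, a log2 difference of -0.41 (SE 0.23, limma adjusted p = 0.617). Without cKO late replicate 2, the lowest library and the one with the fewest reads, the size of that difference was smaller, at -0.09.

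S100a5 was also read against Omp, the olfactory marker protein mRNA of mature olfactory neurons. In early polysomes it stood at 147% and 107% of Omp in WT and at 116% and 124% in cKO. In late polysomes it stood at 82.8% and 67.0% in WT and at 66.4% and 51.6% in cKO. The genotypes thus overlapped in early polysomes, and in late polysomes 1 cKO library reached almost the lower WT value. Summed over 12 mature neuron markers, TPM before scaling was 9129 to 9723 in WT late and 7998 to 8761 in cKO late polysomes, with no overlap. The sum was not computed on scaled TPM, and its part in the S100a5 values was not tested. Omp itself, which is in that sum, overlapped between genotypes in late polysomes (log2 difference -0.06, SE 0.22, limma adjusted p = 0.953). In such bulk samples, fewer cells of a type and less RNA per cell cannot be told apart. With no library of total RNA among those used here, a change in ribosome loading cannot be told apart from a change in mRNA level either.

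Between genotypes in late polysomes, none of the 6 genes was called by limma, and 2 (Necab1 and Calb1) had an unadjusted p under 0.05. Necab1 was chosen for its rise in early libraries of the same lysates. Its late p and its place above WT are therefore not free of that choice, and only Calb1 of the 2 was not picked that way. The background is 0.0124% of all tested genes called, which is 2 of 16097 (0 without WT late replicate 1 or 2, 13 and 9 without cKO late replicate 1 and 2, and 1 without either cKO early library), and 9.36% with an unadjusted p under 0.05. Applied to the inferred reads, limma's voom called none of the 6. In 2 of the 6 (Necab1 and Calb1) both cKO libraries lay above both WT libraries, in 2 (Calb2 and S100a5) below, and in the remaining 2 they overlapped. Of all tested genes, 20.5% had both cKO libraries above, 20.1% had both below, and 40.7% had either. The median late difference was -0.11 over the 6 genes and -0.00066 over all tested genes.

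In early polysomes 0.0435% of all tested genes were called between genotypes, and nothing is read from it for these genes because that contrast was used to choose Necab1. There the cKO libraries lay above the WT libraries in Necab1, which was chosen for that rise, so its place is no result. They lay below in 2 genes (Necab3 and Calb2) and overlapped in 3. Of all tested genes, 19.6% lay above, 17.6% below and 37.1% either way. In late polysomes both cKO libraries lay above both WT libraries for Necab1 and Calb1, though neither difference passed the threshold. These 2 genes are also those with the long 3′ untranslated regions, and the part of that length was not tested. Among 1973 tested genes with such a region of at least 3000 nt, the median late difference was -0.03, and 40.6% had a higher value in cKO, compared with 50.5% of the 14675 genes with a known length.

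**Figure D2:**
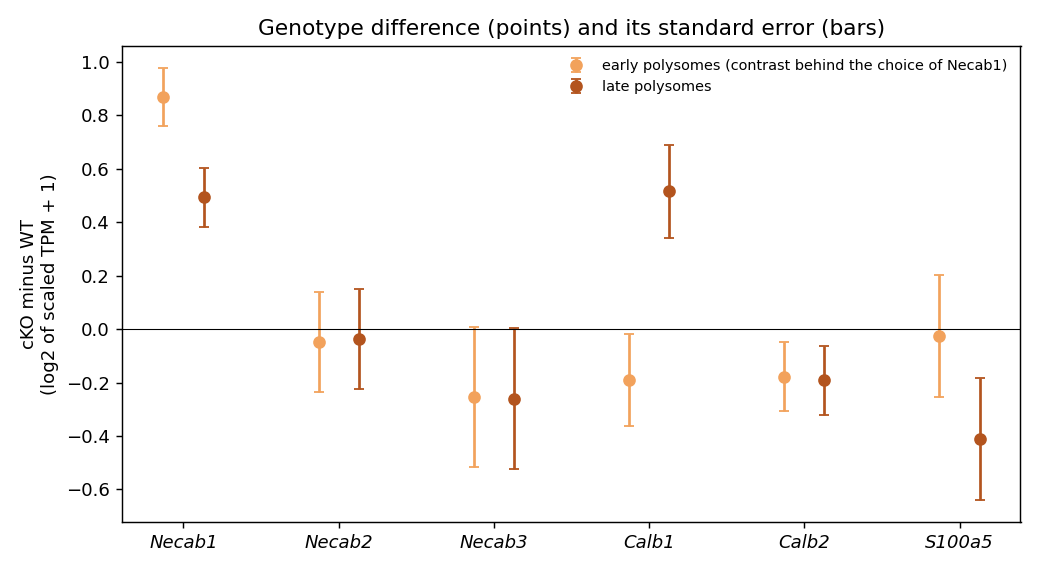
Difference between cKO and WT for each gene on the log2(scaled TPM + 1) scale, in early and late polysomes, with points for the difference and bars for its standard error. Necab1 is above 0 in both pools (0.87 and 0.49), Calb1 in late polysomes only (-0.19 and 0.52), and no late difference passed the adjusted threshold.

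Messages move down a sucrose gradient with the number of ribosomes they carry, and a longer coding sequence has room for more. The late pool was set against the early pool within each genotype. In WT, 2 of the 5 genes tested were called by limma, where 54.8% of all tested genes were called (8826, and 5874 without WT early replicate 2): Necab2 and S100a5 were lower in late polysomes. In cKO, 3 of the 5 genes tested were called, where 58.1% of all tested genes were called: Calb1 was higher, and Necab2 and S100a5 were lower. Necab1 was not tested in either genotype, because its early levels chose it. With so few genes, neither count is read as above or below the background. The 2 sets of differences come from different lysates and share no library.

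S100a5 had the largest shift of the 6 genes. Its early level was 2.65 and 3.16 times its late level in the WT lysates and 2.91 and 4.90 times in the cKO lysates, so it was higher in early polysomes in 4 of 4 lysates. The late minus early log2 difference was -1.53 in WT (SE 0.23, limma adjusted p = 0.0010) and -1.92 in cKO (SE 0.23, limma adjusted p = 0.0003). It was called in both genotypes under each of the 18 alternative settings or left-out libraries. The difference between the genotypes in this shift was not tested.

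Coding length was split into 10 bins over 14675 tested genes. The median late minus early difference rose from -1.12 in the shortest bin, which holds S100a5, to 0.50 in the longest. Averaged over 4 lysates, the S100a5 value lay above 4.50% of the genes in its bin. That bin spans 114 to 558 nt with a median of 420 nt, so S100a5, at 282 nt, is shorter than its median gene. Length within the bin was not matched. The genes whose levels followed S100a5 most closely over the 8 libraries were Acyp2 (Pearson r = 0.998), Med28 (0.998), Atpif1 (0.998), Gabarapl2 (0.997) and Cox5b (0.997). Like S100a5, all 5 had their highest group mean in an early pool, which follows from picking them for likeness to it and is no separate result. High values were common, since Necab2, at r = 0.844, ranked 3722nd among 12815 genes.

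Calb1 had the opposite shift in cKO. Its late minus early log2 differences were 1.12 and 0.48 in the cKO lysates and -0.03 and 0.22 in the WT lysates. The cKO difference was 0.80 (SE 0.17, limma adjusted p = 0.0044) and was called under each of the 18 alternatives. The WT difference was 0.10 (SE 0.17, limma adjusted p = 0.666). Whether the genotypes differ in this shift was not tested. Over 4 lysates Calb1, with a coding sequence of 786 nt and a mean of 0.45, lay above 94.9% of the genes of its length bin, whose median was -0.63. That bin ends at 789 nt. In the next, longer bin the median was -0.27 and the 90th percentile 0.48, which is above the Calb1 mean.

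**Figure D3:**
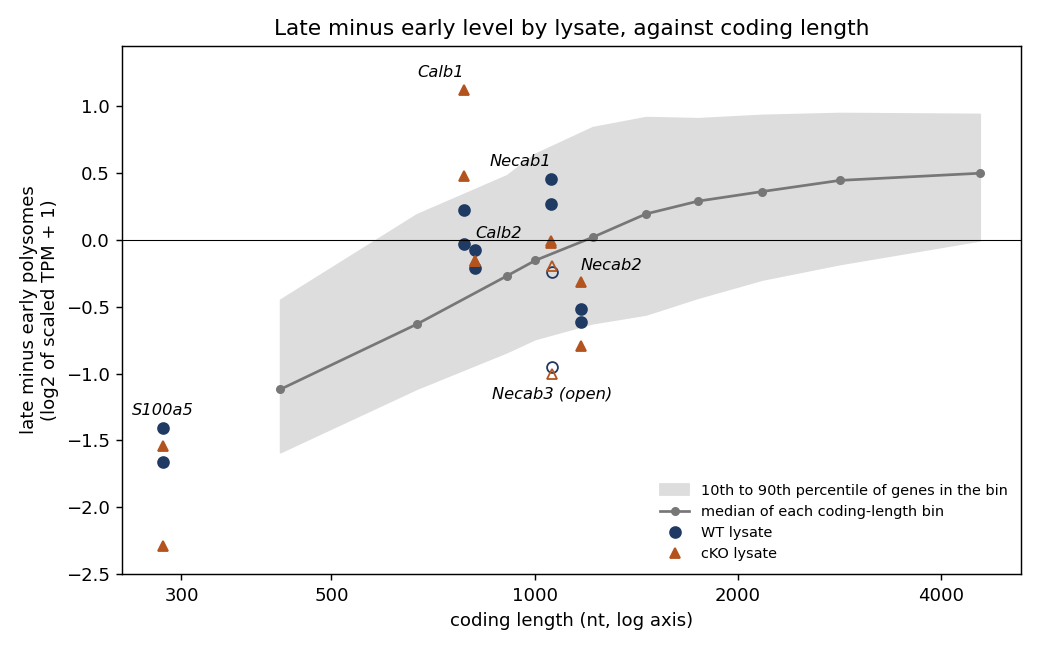
Late minus early difference on the log2(scaled TPM + 1) scale for each of the 4 lysates (blue circles WT, orange triangles cKO, open symbols Necab3), against coding length in nt on a log axis. The grey line joins the medians of 10 coding-length bins and the band spans the genes between the 10th and the 90th percentile. S100a5 lies at the lower left, and Calb1 in cKO above it.

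Necab1 was higher in late than in early polysomes of WT by 0.46 and 0.26 log2 units in the 2 lysates. The WT difference was 0.36 (SE 0.11), given as a description because the WT early libraries entered the choice of Necab1. In cKO the differences were -0.02 and -0.0055, so scaled levels in the 2 pools were nearly equal. Without scaling, the WT value was 0.46 and the cKO value was 0.11.

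Necab2 and Necab3, similar in coding length to Necab1, were both lower in late polysomes in 4 of 4 lysates. For Necab2 the difference was -0.57 in WT (SE 0.19, limma adjusted p = 0.0323) and -0.55 in cKO (SE 0.19, limma adjusted p = 0.033). The WT call was lost without WT early replicate 1 (0.162), WT early replicate 2 (0.054) or WT late replicate 2 (0.195), without a filter on low values (0.060) and without scaling (0.069). The cKO call was lost without any 1 of the cKO libraries (limma adjusted p between 0.0504 and 0.164), by voom (0.0516) and in 3 other settings.

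For Necab3 the difference was -0.59 in WT (SE 0.26, limma adjusted p = 0.0861) and -0.60 in cKO (SE 0.26, limma adjusted p = 0.0801). Neither passed, but both did by voom (0.0267 and 0.0366). Leaving out cKO late replicate 1 or 2 brought the WT value past the threshold (0.0207 and 0.0217), and leaving out cKO late replicate 2 did so for the cKO value (0.0076). Over 4 lysates Necab2 lay above 14.5% and Necab3 above 17.9% of genes in their bins. Both thus lay below the median of genes of like coding length.

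Calb2 did not pass the test between pools in either genotype. Its late minus early difference was -0.14 in WT (SE 0.13, limma adjusted p = 0.369) and -0.16 in cKO (SE 0.13, limma adjusted p = 0.319). It lay above 58.7% of the genes of its bin. Against Omp, Calb2 stood at 37.1% and 25.6% of Omp in WT early and 52.5% and 43.8% in WT late polysomes. Omp fell by 0.78 in late polysomes of WT (SE 0.22, limma adjusted p = 0.0179) and fell by 0.88 in those of cKO (SE 0.22, limma adjusted p = 0.0098). The WT call was lost in 5 of 18 alternatives (limma adjusted p between 0.0634 and 0.160), 3 of them without WT early replicate 2 or either WT late library. The cKO call was lost in 2 (0.0636 and 0.190), 1 of them without cKO late replicate 2.

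The wider calcium-related genes were split by role as well, and none of the 9 lists described here held a gene called between genotypes in late polysomes by limma or by voom, with 13 of 113 list entries (11.5%) at an unadjusted p under 0.05 by limma, against 9.36% of all tested genes. Of 15 tested S100 genes, S100a5 among them, all 15 fell from early to late polysomes in WT and 13 fell in cKO, with medians of -1.47 and -1.82. S100a1 fell by 1.74 in WT (SE 0.23, limma adjusted p = 0.00066) and fell by 2.18 in cKO (SE 0.23, limma adjusted p = 0.00024). Of 8 tested calmodulins and relatives, 5 fell in WT and 7 in cKO and none rose. Calm2, a calmodulin gene, fell by 1.18 in WT (SE 0.18, limma adjusted p = 0.0011) and by 1.29 in cKO (SE 0.18, limma adjusted p = 0.00055). Of 10 neuronal calcium sensors, 4 fell and 1 (Vsnl1, 0.39) rose in WT, and 5 fell in cKO. Without WT early replicate 2 the WT falls numbered 2, and the Vsnl1 call was lost without WT early replicate 1 or either WT late library.

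Among genes that move calcium across membranes, more rose than fell, with no matching for coding length. Of 22 tested pumps, exchangers and release channels, 9 rose and 3 fell in WT, and 9 rose and 2 fell in cKO, with medians of 0.41 and 0.37. The falls numbered 1 in WT without WT early replicate 2 or WT late replicate 1, and 1 in cKO without cKO early replicate 2. Slc24a4, the sodium-calcium exchanger that olfactory neurons use to clear calcium, rose by 0.76 in cKO (SE 0.12, limma adjusted p = 0.0011). It rose by 0.58 in WT (limma adjusted p = 0.0045). Atp2a2, a calcium pump of the endoplasmic reticulum, rose by 0.90 in WT (SE 0.16, limma adjusted p = 0.0019) and by 0.80 in cKO (SE 0.16, limma adjusted p = 0.0028). Of 26 other EF-hand genes, 5 rose and 17 fell in WT, and 6 rose and 17 fell in cKO. Of 4 tested reported NECAB partners, 3 (App, Syt1 and Apba2) rose in both genotypes, but the WT call of Apba2 (0.30, limma adjusted p = 0.0353) was lost in 5 of 18 alternatives.

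Among 6 genes tied to odour activity in olfactory neurons, S100a5, Pcp4l1 and Lrrc3b fell in both genotypes. Kirrel3, a cell adhesion gene, rose in both, and Kirrel2 rose in WT. Lrrc3b lost its call in 10 of 18 alternatives in WT and in 7 in cKO. Kirrel2 lost its WT call in 6, among them without each of the 4 WT libraries, and Kirrel3 lost its cKO call in 8. With a replicate block on the lysate, 1 gene of this list rose in WT and 0 in cKO. Of 17 tested immediate early genes, 9 rose and 2 fell in WT, and 8 rose and 3 fell in cKO. The WT rises numbered 5 without WT early replicate 2. Arc, an activity-induced gene of synapses, rose by 0.83 in WT (SE 0.20, limma adjusted p = 0.0083) and by 1.14 in cKO (SE 0.20, limma adjusted p = 0.0016). Its WT call was lost without WT early replicate 2 or WT late replicate 2 (limma adjusted p = 0.0632 and 0.0647). Against the counts of all these lists, 27.1% of all tested genes rose and 27.7% fell in WT, and 28.9% rose and 29.2% fell in cKO. These shares depend on the scaling: rises made up 49.5% of WT calls and 49.7% of cKO calls with it, and 56.9% and 57.8% without it. They are also not matched for coding length, along which the median difference ran from -1.12 in the shortest bin to 0.50 in the longest. The part of coding length in the list counts was not tested.

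**Figure D4:**
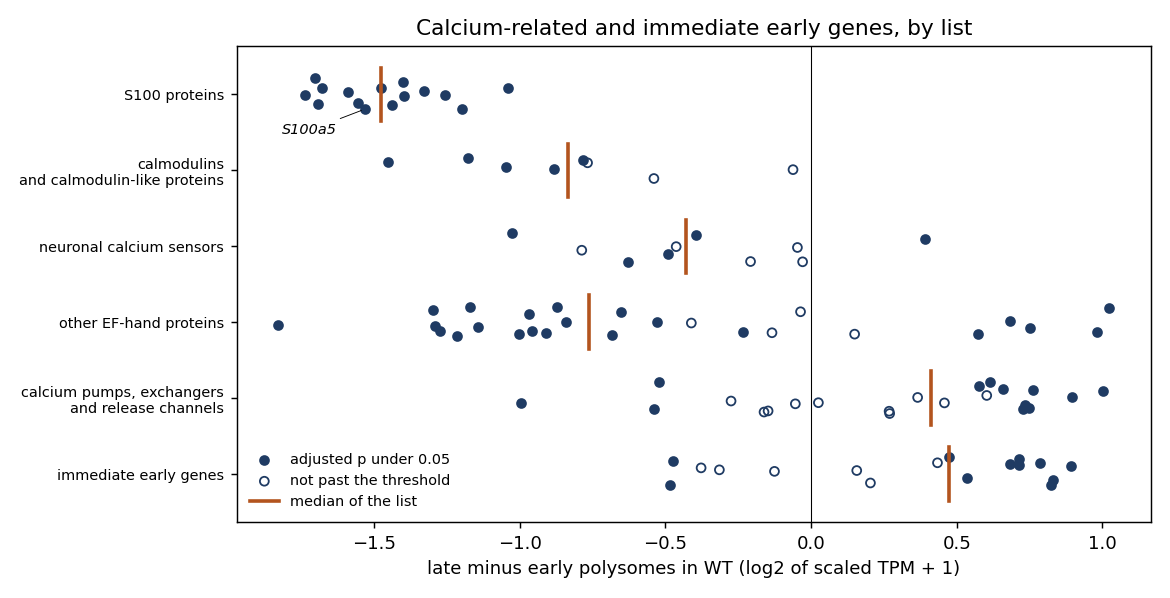
Late minus early difference in WT on the log2(scaled TPM + 1) scale for the tested genes of 6 lists, filled where the limma adjusted p was under 0.05 and open where it was not, with a bar at each list's median. All 15 S100 genes, S100a5 included, lie to the left of 0, and most pumps, exchangers and release channels and most immediate early genes lie to the right.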

How the data were processed

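The authors deposited TPM in a single table of 21765 rows named by gene symbol; the 8 columns are the libraries, and each adds up to 1000000. FastQC, cutadapt, STAR, DESeq2 and the mm10 build are named in the submitters' processing notes; the counting method, its strand setting and the annotation are not given in the sources used here. The Cre line is not reported here. Titles gave the groups and the replicate numbers.

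TPM were scaled by median ratios and tested with limma 3.58.1 (R 4.3.3) on log2(scaled TPM + 1), in a model of 4 group means over all 8 libraries with a mean-variance trend. The test was two-sided, with Benjamini-Hochberg adjustment over the 16097 genes with a mean of at least 1 TPM. TPM states no depth, but low values were whole multiples of a step, so whole reads could be worked out: of 19783 genes with a value above 0 in 2 or more libraries, 100% gave whole numbers within 0.001. They served for counting errors, which cover counting error only, and for limma's voom as an alternative. On simulated libraries of 16048 tested genes, the fit recovered 174 of 200 genes changed 3-fold between early and late WT polysomes, beside 15 false calls. Between the cKO pools, where Calb1 was called, it recovered 180 of 200 such genes, beside 24 false calls. For late polysomes between genotypes it recovered 366 of 400 such genes, beside 27 false calls. Only 3-fold changes were simulated, so recovery of smaller ones is not known. The 200 genes changed between pools are also far fewer than the 8826 (WT) and 9346 (cKO) called in the data.

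The 6 genes, the lists and the tests were chosen with earlier results of these data known. From each list, up to 4 genes with the largest rise and 4 with the largest fall past the threshold, with a mean of at least 5 scaled TPM, could be named; the text gives some of them. A test of Necab1 between pools in WT was planned and dropped, since its WT early level entered its choice. Sex-linked genes and Scgn were picked after their values were seen. Likeness to Necab1 and S100a5 is Pearson's r of log2(scaled TPM + 1). Coding and untranslated lengths and sequences come from GENCODE vM21 (GRCm38), which had a coding length for 91.2% of tested genes.

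The early and late libraries of a genotype and number share a lysate name in the labels. Deviations from the group means correlated over genes with r = 0.0863 between the pools of the WT lysates and 0.0502 in cKO. For WT and cKO libraries of 1 number, r was 0.332 in early and 0.143 in late polysomes, and no label says that they share a batch.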

Additional observations from a re-analysis of the deposited data

Results flagged for a closer look

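Necab1 was higher in late than in early polysomes in both WT lysates (log2 differences of 0.46 and 0.26) and slightly lower in both cKO lysates (-0.02 and -0.0055), so the genotypes moved in opposite directions. The cKO difference minus the WT difference was -0.38. That difference was not tested, because the early contrast that chose Necab1 is part of it. The cKO values are close to 0, and without scaling the cKO difference was 0.11, in the same direction as in WT.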

How the results depend on the processing

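Each value was recomputed under 18 alternatives. The late-polysome count between genotypes, 2, became 15 by voom, 1 with a pseudocount of 0.1, 4 without a filter, 1 with a mean of at least 5 TPM, 5 without a trend and 1 with only the 4 libraries compared. Leaving out 1 library gave 0 to 13 (0 without WT late replicate 1 or WT late replicate 2, 13 without cKO late replicate 1, 9 without cKO late replicate 2). Where 0 were called, an unadjusted p under 0.05 was found for 798 and 1240 genes. The early count, 7, became 20 by voom, 11 without a filter, 4 with a mean of at least 5 TPM, 0 with only 4 libraries (1043 at an unadjusted p under 0.05) and 0 to 9 with 1 library left out (0 without WT early replicate 1, with 589 unadjusted). The counts between pools, 8826 in WT and 9346 in cKO, ranged from 5874 (without WT early replicate 2) to 8968 and from 6860 to 9078 with 1 library left out.

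With a replicate block on the number, the counts between genotypes were 2 and 7. With a block on the lysate, the counts between pools were 8660 and 9245, and no call of the 6 genes changed. Without scaling, the median of all tested genes moved by 0.11 in the cKO comparison of pools.

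In late polysomes between genotypes, Necab2 reversed to 0.14 without WT late replicate 1 and to 0.07 without cKO late replicate 1 (leave-one-out range -0.22 to 0.14), and Necab3 to 0.16 without cKO late replicate 1 (-0.68 to 0.16). Calb2 reversed to 0.035 between pools in WT with quantile normalization. The cause was not tested.

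Between pools, the untested Necab1 difference in WT was 0.46 without scaling (leave-one-out range 0.31 to 0.42). Calls weakened for Necab2 in WT without a filter (-0.57) and without scaling (-0.47; -0.75 to -0.39). In cKO Necab2 weakened by voom (-0.63), without a filter (-0.55), without scaling (-0.44) and with only 4 libraries (-0.55; -0.68 to -0.43). Necab3 passed in WT by voom (-0.62) and with only 4 libraries (-0.59; -0.79 to -0.40), and in cKO by voom (-0.68; -1.02 to -0.18). In early polysomes between genotypes, the near-zero untested differences of Necab2 (-0.18 to 0.08) and S100a5 (-0.09 to 0.03) changed sign with 1 library left out, and quantile normalization gave -0.43 for S100a5 and -0.25 for Calb2. The other tested differences of the 6 genes kept their direction and side of the threshold. Genes named from the lists kept their direction, but some calls were lost. Counting error was largest for Necab2, with as few as 41 reads.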

Other observations

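Scgn, the gene of the EF-hand calcium sensor secretagogin, was singled out among the cytosolic EF-hand buffers after its values were seen. It stood at 18.4 and 18.3 TPM in the WT early pair, 11.9 and 11.6 in cKO early, 21.1 and 26.8 in WT late, and 10.5 and 10.8 in cKO late polysomes. All 4 cKO libraries lay below all 4 WT libraries. The late-polysome log2 difference was -1.06 (SE 0.13) and did not pass the threshold (limma adjusted p = 0.0957).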
